A study of Rattus norvegicus with 6 samples.

Results

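The miR-30 family was followed in the medial prefrontal cortex (mPFC) of rats through 9 arms listed by name, namely rno-miR-30a-5p, rno-miR-30b-5p, rno-miR-30c-5p, rno-miR-30d-5p, rno-miR-30e-5p, rno-miR-30a-3p, rno-miR-30b-3p, rno-miR-30d-3p and rno-miR-30e-3p, out of 1465 miRNAs in the table, 694 of them annotated. A microRNA (miRNA) is a short RNA that guides repression of messenger RNAs, and each hairpin precursor can give 2 of them, the 5p arm from its first strand and the 3p arm from its second. The study compared 3 Control rats, undisturbed apart from handling and cleaning, with 3 rats put through chronic mild stress (CMS), both for 4 weeks. Stressors were restraint, tilted cages, foot shock, tail clipping, swimming in cold water, reversed light and dark, and withheld food or water, given at random. The sources used here give no strain, sex or age. CMS is a rodent model of depression, and the mPFC is a frontal area that takes part in the control of mood and stress responses. The family and its 3p over 5p ratio were picked with earlier results of these same libraries in view, so the CMS and Control differences below are descriptions and the counts of members past a test support nothing on their own.

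The 5p arms of the miR-30 family share 1 seed, the stretch at bases 2 to 8 that pairs with target messenger RNAs, and so are thought to act on overlapping targets. In most tissues the 5p arm is the guide strand that is loaded into Argonaute, while the 3p arms of miR-30a and miR-30e are also recovered from many tissues. Because the 3p arms carry other seeds, a change in the balance of the arms would change which messenger RNAs can be paired.

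The mature arms are shown because the family is defined by its seed, in capitals here, and because near-identical members limit how far their values can be told apart. RefSeq (build GRCr8) held sequences for 4 of the 9 members and for all 4 related arms that were added for comparison. It held none for miR-30b-5p, miR-30d-5p, miR-30b-3p, miR-30d-3p and miR-30e-3p.
miR-30a-5p: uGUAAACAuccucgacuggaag
miR-30e-5p: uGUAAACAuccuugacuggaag
miR-30c-5p: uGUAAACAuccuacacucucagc
miR-384-5p: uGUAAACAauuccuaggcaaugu
miR-30a-3p: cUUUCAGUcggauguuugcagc
miR-30c-1-3p: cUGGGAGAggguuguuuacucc
miR-30c-2-3p: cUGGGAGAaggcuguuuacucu

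Counting from 1 at the 5′ end, miR-30e-5p differs from miR-30a-5p only by C13U over 22 bases. How reads of such near-identical arms were divided is not stated, so their separate values are less certain than their sum. The RefSeq hairpin of miR-30e also holds a stretch that is 1 base apart from miR-30a-3p. The same limit may therefore apply to the 3p arms of miR-30a and miR-30e and to their separate ratios. From miR-30a-5p, miR-30c-5p differs by C13A, G14C, G18C, G19U and A20C and is 1 base longer. All 3 share their first 12 bases. The seed GUAAACA stood in 4 of 693 mature miRNA names in the RefSeq table, the fourth being miR-384-5p, a brain miRNA from another hairpin. Its unbroken match with these 3 miR-30 arms, counted from base 1, ends at base 8. The 3p arm of miR-30a has the seed UUUCAGU, and both 3p arms of miR-30c have UGGGAGA. The hairpin of miR-30a is shown with both mature arms in capitals, 5p first, to place the arms whose balance is described.
Mir30a: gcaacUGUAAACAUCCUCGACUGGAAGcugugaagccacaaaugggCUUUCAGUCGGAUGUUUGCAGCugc

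In the RefSeq gene order the 6 rat miR-30 genes form 3 pairs. The genes Mir30c1 and Mir30e lie side by side within Nfyc, which encodes a subunit of the transcription factor NF-Y. Mir30b and Mir30d are adjacent to each other, and Mir30a and Mir30c2 are separated by 2 other genes. Since miR-30c-5p has the same sequence from both of its hairpins, its value cannot be assigned to one gene.

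Values are the authors' normalized expression values, rounded to whole numbers, with blanks taken as 0. They summed to between 709674 and 736078 per library. Sequencing depth is unknown. Neuronal miRNAs were abundant in all libraries, with miR-9a-5p between 52742 and 76696 and miR-124-3p between 2059 and 2562. Control 1 lay furthest from the other libraries of its group, with a median absolute log2 deviation of 0.34 over 399 miRNAs, against 0.15 to 0.27 for the remaining libraries. Levels of different miRNAs are compared on this scale alone, which is not corrected for how well each sequence is captured in a library.

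Together the 5 miR-30 5p arms held 6.64% ± 0.447 of a Control library and 6.02% ± 0.933 of a CMS library (mean ± SD, n = 3 each). Their sum was 45453, 50774 and 48337 in Controls 1 to 3 and 36379, 45977 and 47104 in CMS 1 to 3. CMS 1 was below all other libraries, and the ranges of the groups overlapped. In CMS 1 the sum was 21.8% below the mean of the other 2 CMS libraries. This gap lay in miR-30a-5p and miR-30e-5p, whose joint value was 44.9% below that mean, whereas the joint value of miR-30b-5p, miR-30c-5p and miR-30d-5p was 0.781% above it. The log2 difference of the 5p sum, CMS minus Control, was -0.17. It was -0.05 without CMS 1 and -0.29 with trimmed-mean rescaling.

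**Figure D1:**
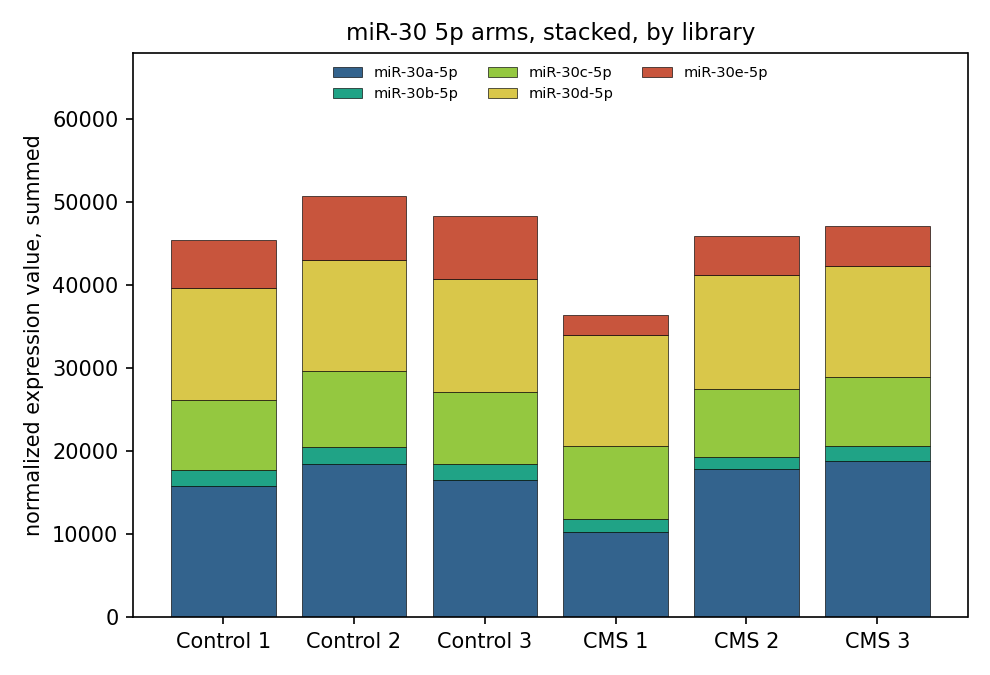
Normalized expression values of the 5 miR-30 5p arms, stacked, for each of the 6 libraries (x axis) from 0 (y axis, summed value). CMS 1 reaches 36379 and the other libraries lie between 45453 and 50774. The layer of miR-30c-5p and that of miR-30d-5p each keep nearly the same height from library to library.

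The most abundant member was miR-30a-5p, the 9th of all miRNAs by mean value. It stood at 15778, 18473 and 16557 in Control and 10294, 17826 and 18777 in CMS. CMS 1 was low, CMS 3 was the highest of the 6, and the groups overlapped. Its log2 difference was -0.16 ± 0.25 (SE), and 0.11 without CMS 1.

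Next came miR-30d-5p, the steadiest abundant miRNA in the table on the authors' scale. Its values were 13432, 13379 and 13632 in Control and 13388, 13721 and 13410 in CMS. The coefficient of variation over all 6 libraries was 1.08%, the lowest of 84 miRNAs with a mean of at least 1000, whose median was 17.5%. The second lowest was that of miR-30c-5p, at 3.82%. Its values were 8473, 9152 and 8685 in Control and 8828, 8283 and 8339 in CMS. Log2 differences were 0.003 ± 0.069 for miR-30d-5p, turning to -0.12 with trimmed-mean rescaling and -0.02 with quantile normalization, and -0.05 ± 0.08 for miR-30c-5p (SE, n = 3 per group).

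The 5p arm of miR-30e, from the Nfyc pair, varied most among the 5p arms. It stood at 5850, 7696 and 7618 in Control and 2409, 4736 and 4757 in CMS. Every CMS library was below every Control library, and CMS 1 was again the lowest. The Control mean of 7054.7 ± 1044 was 1.78 times the CMS mean of 3967.3 ± 1349.6, a log2 difference of -0.89 ± 0.30 (SE). Without CMS 1 it was -0.56. The joint value of miR-30a-5p and miR-30e-5p was 21628, 26169 and 24175 in Control and 12703, 22562 and 23534 in CMS. For this joint value the groups overlapped, and the log2 difference was -0.34.

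The least abundant 5p arm was miR-30b-5p, the partner of miR-30d in its gene pair. It stood at 1920, 2074 and 1845 in Control and 1460, 1411 and 1821 in CMS. The groups did not overlap, though CMS 3 was close to Control 3. The log2 difference was -0.32 ± 0.13 (SE).

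By composition, the Control 5p sum was 35.1% ± 1.12 miR-30a, 28.0% ± 1.61 miR-30d, 18.2% ± 0.373 miR-30c, 14.6% ± 1.52 miR-30e and 4.04% ± 0.207 miR-30b (mean ± SD, n = 3). The share of miR-30e was 12.9%, 15.2% and 15.8% in Controls 1 to 3 and 6.62%, 10.3% and 10.1% in CMS 1 to 3, every CMS library below every Control, and the shares of the other 4 arms overlapped between the groups. The ratio of miR-30a-5p to miR-30e-5p, the pair that differs by 1 base, was 2.70, 2.40 and 2.17 in Control and 4.27, 3.76 and 3.95 in CMS. Here CMS 1 lay close to the other CMS libraries, since both arms were low in it.

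**Figure D2:**
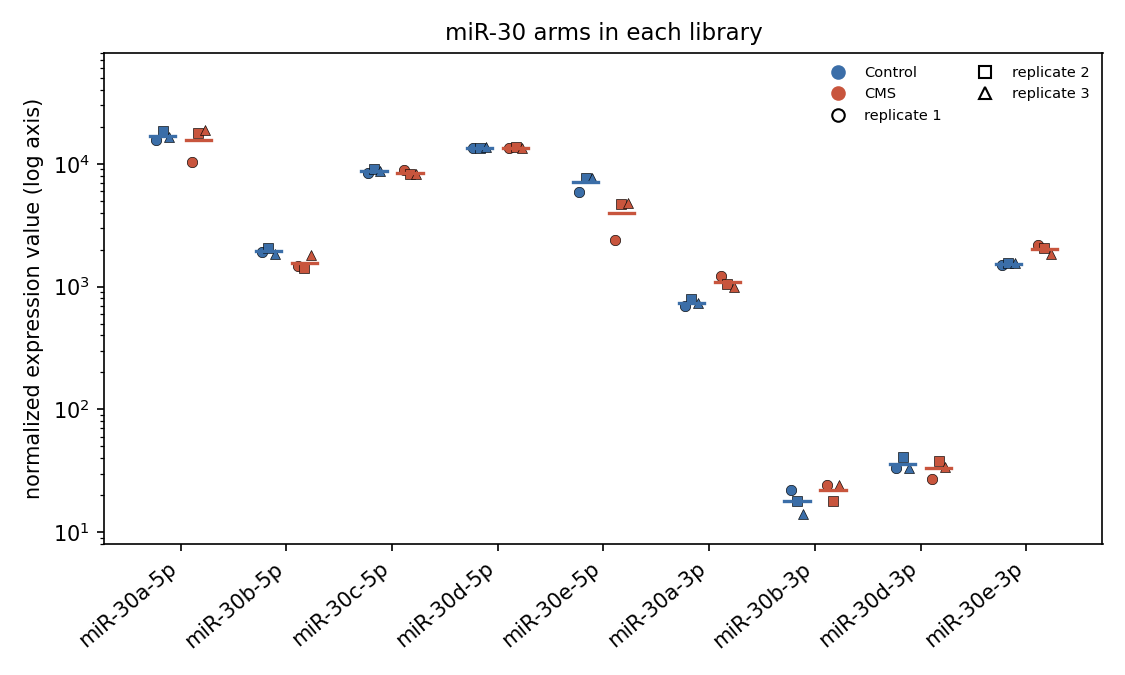
Normalized expression value (y axis, log scale) of each of the 9 miR-30 arms (x axis) in 3 Control and 3 CMS libraries, with 1 symbol per library and a bar at each group mean. Within miR-30c-5p and within miR-30d-5p the Control and CMS values nearly coincide. The level of miR-30e-5p is lower in CMS, and those of miR-30a-3p and miR-30e-3p are higher in CMS.

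Among the 3p arms, those of miR-30e and miR-30a made up nearly the whole sum, at 66.0% and 31.7% of it in Control (means, n = 3). The level of miR-30e-3p was 1487, 1568 and 1554 in Control and 2175, 2046 and 1859 in CMS. That of miR-30a-3p was 691, 799 and 731 in Control and 1214, 1055 and 997 in CMS. Each CMS library exceeded all 3 Controls for both arms, and CMS 1, which had the lowest 5p values, had the highest 3p values. The CMS mean was 1.32 times the Control mean for miR-30e-3p and 1.47 times for miR-30a-3p. Log2 differences were 0.40 ± 0.10 and 0.55 ± 0.12 (SE), and 0.34 and 0.47 without CMS 1.

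Both other 3p arms were rare. The level of miR-30d-3p was 33, 41 and 33 in Control and 27, 38 and 34 in CMS. For miR-30b-3p it was 22, 18 and 14 in Control and 24, 18 and 24 in CMS. The groups overlapped for both, and at values this low rounding to whole numbers is a visible part of each value. Added together, the 4 3p arms came to 2330.3 ± 96.5 in Control against 3170.3 ± 263.3 in CMS (mean ± SD, n = 3 each), without overlap between the groups. Its log2 difference was 0.44, and 0.32 with trimmed-mean rescaling.

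None of the 9 members passed limma-trend over all 657 miRNAs tested at a Benjamini-Hochberg adjusted p under 0.05, where 4.11% of miRNAs passed. At an unadjusted p under 0.05 there were 4 members (miR-30b-5p, miR-30e-5p, miR-30a-3p and miR-30e-3p), where 23.3% of all miRNAs passed. Groups did not overlap for 2 members that were higher in CMS, where 19.6% of miRNAs were, and for 2 that were lower, where 6.24% were. A log2 difference above 0 was found for 4 members and for 56.5% of all miRNAs. Of the 5p arms 4 of 5 had a negative log2 difference, with a median of -0.16, and of the 3p arms 3 of 4 had a positive one, with a median of 0.34. The median over all miRNAs tested was 0.08. Trimmed-mean rescaling moved all log2 differences by a median of -0.12 and quantile normalization by -0.12.

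The 3p over 5p ratio compares arms within a library, so rescaling a library leaves it in place. No miR-30 hairpin switched its dominant arm: the 5p value was above the 3p value in all 6 libraries for a, b, d and e. What differed was the size of the gap. For miR-30e the 3p value per 100 of the 5p value was 25.4, 20.4 and 20.4 in Control and 90.3, 43.2 and 39.1 in CMS. Every CMS library lay above every Control, and in CMS 1 the arms were close to equal. The log2 ratio difference was 1.28 ± 0.27 (SE), and 0.90 without CMS 1.

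For miR-30a the ratio was 4.38, 4.33 and 4.42 per 100 in Control and 11.8, 5.92 and 5.31 in CMS. The 3 Controls were nearly equal and all CMS libraries were above them. The log2 ratio difference was 0.72 ± 0.25 (SE), and 0.36 without CMS 1, the library with the highest ratio. For miR-30b the ratio was 1.15, 0.868 and 0.759 per 100 in Control and 1.64, 1.28 and 1.32 in CMS, again with no overlap. Its log2 ratio difference was 0.61 ± 0.23 (SE).

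In miR-30d the ratio was 0.246, 0.306 and 0.242 per 100 in Control and 0.202, 0.277 and 0.254 in CMS. The groups overlapped, and the log2 ratio difference was -0.12 ± 0.20 (SE), or 0.01 without CMS 1. Pooling the members, the 3p sum per 100 of the 5p sum was 4.91, 4.78 and 4.82 in Control and 9.46, 6.87 and 6.19 in CMS. The 5p sum here holds miR-30c-5p, while the 3p sum holds neither 3p arm of miR-30c. This pooled ratio does not depend on how reads were divided among near-identical members of 1 arm. Over the arms of miR-30a and miR-30e together it was 10.1, 9.05 and 9.45 in Control and 26.7, 13.7 and 12.1 in CMS.

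**Figure D3:**
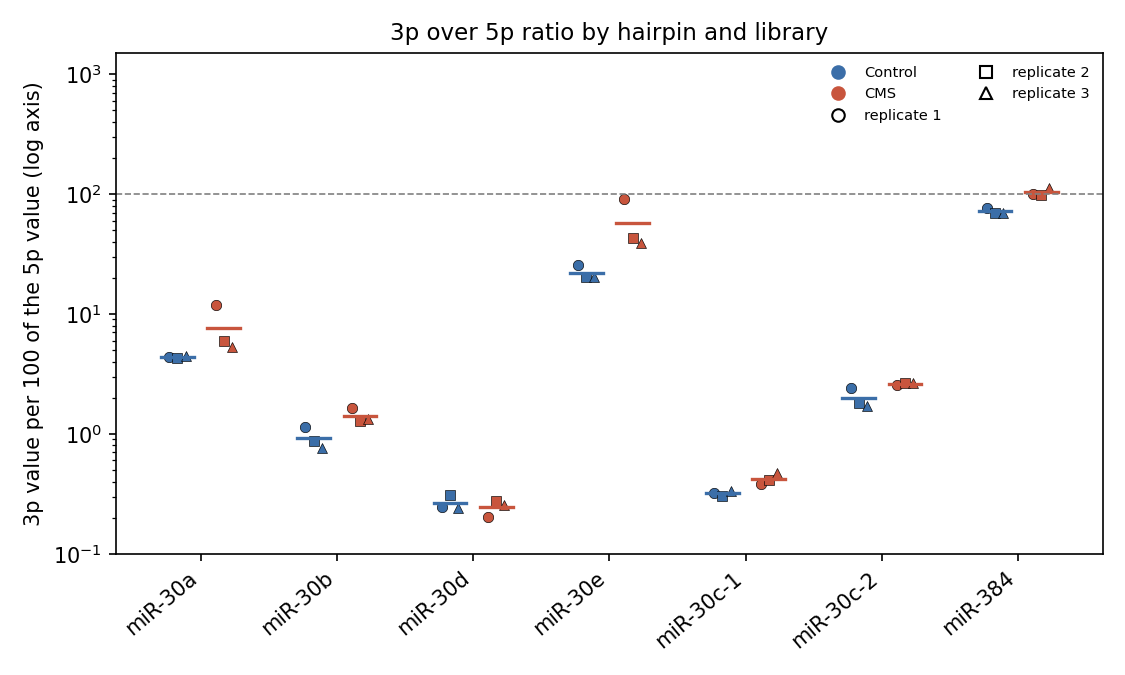
The 3p value per 100 of the 5p value (y axis, log scale) for each hairpin (x axis) in 3 Control and 3 CMS libraries, with 1 symbol per library and a bar at each group mean; the dashed line marks equal arms. Both miR-30c hairpins are set against the shared miR-30c-5p. The CMS libraries lie above the Controls for every hairpin shown but miR-30d, and CMS 1 is highest for miR-30a, b and e.

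Of 144 annotated hairpins with both arms measured, 18.1% had a ratio past limma at an adjusted p under 0.05, and so had 1 of the 4 miR-30 hairpins, miR-30e. At an unadjusted p under 0.05 there were 3 (a, b and e), where 36.8% of hairpins passed. Nothing is read from these counts, because the ratio was part of the reason for choosing the family. The log2 ratio difference of miR-30e was the third largest in size. The call of miR-30e was lost without Control 3 and when no mean-variance trend was used, whereas 3 miR-30 hairpins (a, b and e) passed without Control 1 and with the replicate block, where the count over all hairpins was also higher, at 57 and 41 against 26. Ratios were higher in CMS with no overlap for 3 of the 4, where 19.4% of hairpins were, and lower with no overlap for 0, where 17.4% were. The ratio difference was above 0 for 3 of the 4 and for 48.6% of hairpins. The same 3 had a negative log2 difference of the 5p arm beside a positive one of the 3p arm, which 22.9% of hairpins had. The median log2 ratio difference was 0.66 over the 4 and -0.02 over all 144. Over the 73 hairpins in which the 5p arm was the more abundant, as in all 4 miR-30 hairpins, the median was 0.18. Over all hairpins the less abundant arms held 4.40 ± 0.799 per 100 of the more abundant arms in Control and 4.33 ± 0.275 in CMS (mean ± SD, n = 3).

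**Figure D4:**
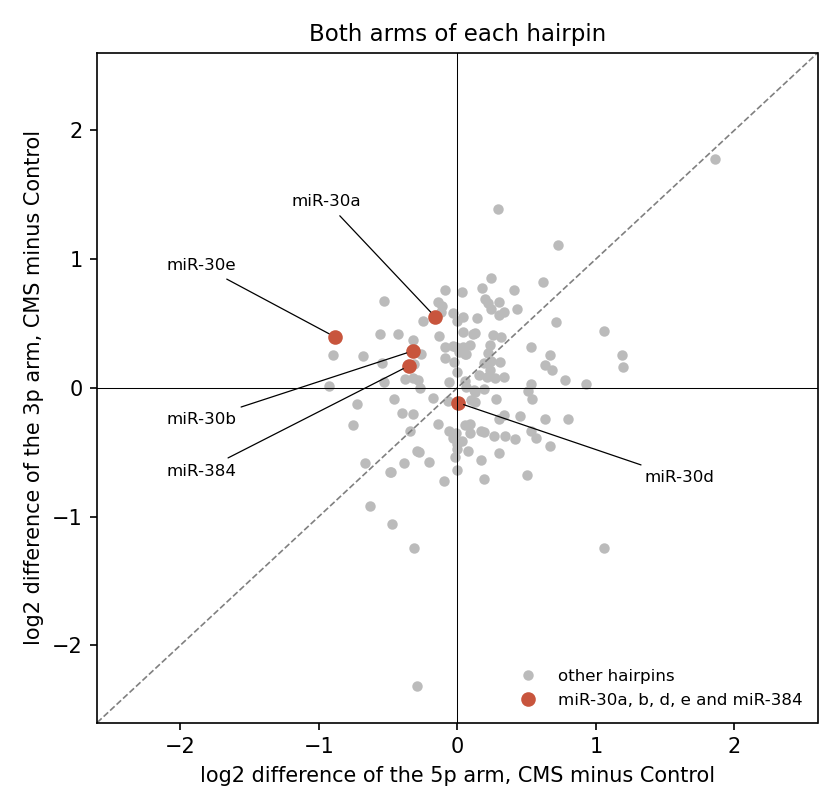
Log2 difference, CMS minus Control, of the 3p arm (y axis) against that of the 5p arm (x axis) for 144 hairpins, 1 point each; the dashed line marks equal differences of both arms. Hairpins miR-30a, b and e and miR-384 lie in the upper left part, with the 5p arm lower and the 3p arm higher in CMS, and miR-30d lies near the origin.

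Arms outside the list were looked at beside it. The 3p arm of miR-30c-1, from the Nfyc pair, was at 27, 28 and 29 in Control and 34, 34 and 39 in CMS. That of miR-30c-2, the partner of miR-30a, was at 205, 164 and 148 in Control and 227, 220 and 221 in CMS. All CMS values exceeded all Control values for both, as for 19.6% of all miRNAs tested, while miR-30c-5p overlapped.

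The seed relative miR-384-5p was at 1228, 1446 and 1444 in Control and 1104, 1021 and 1098 in CMS. For miR-384-5p all CMS libraries were below all Controls, as for 6.24% of all miRNAs tested. It added 2.77% ± 0.135 to the joint pool of this seed in Control and 2.47% ± 0.419 in CMS. Its other arm, miR-384-3p, was at 937, 1005 and 1009 in Control and 1099, 996 and 1238 in CMS, and the 3p arm was above the 5p arm in 1 library, CMS 3. The log2 ratio difference of the miR-384 hairpin was 0.52 ± 0.17 (SE), without overlap between the groups. Its adjusted p was 0.045 in limma over all hairpins, of which 18.1% passed at under 0.05. Of these 4 arms, 0 passed limma over all miRNAs after adjustment, where 4.11% of miRNAs did, and 3 were at an unadjusted p under 0.05 (both miR-30c 3p arms and miR-384-5p), where 23.3% were.

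Among 200 annotated miRNAs with a mean of at least 100 outside the family, the patterns over the 6 libraries most like that of the 5p sum were those of miR-532-5p (Pearson r = 0.98), miR-29c-3p (0.95), miR-137-3p (0.94), miR-136-3p (0.93) and miR-340-5p (0.91). In all 5 the lowest value was that of CMS 1, as for the miR-30 5p sum. For instance, miR-137-3p was at 1698, 1777 and 1985 in Control and 854, 1514 and 1511 in CMS. Most like the 3p sum were miR-337-5p (0.96), miR-129-5p (0.94), miR-21-5p (0.94), miR-27b-3p (0.93) and miR-330-5p (0.93). For each of these 5 all CMS values exceeded all Control values, which was so for 19.6% of all miRNAs tested. Each list was picked by likeness to its sum, so these shared traits largely follow from the choice. These r values describe 6 libraries that share their group and scaling.

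Of 4 glial and immune marker miRNAs, 1 separated the groups as the 3p arms did, miR-21-5p, at 2109, 2095 and 2151 in Control and 3581, 3204 and 3559 in CMS. It made up nearly all of the summed level of that list, which was 2187 to 2236 in Control and 3268 to 3664 in CMS. The immune cell miRNAs miR-142-3p (9 to 19 in Control, 6 to 11 in CMS) and miR-142-5p (64 to 73 and 54 to 74) overlapped and were not higher in CMS. The last of the list, miR-223-3p, was rare and also overlapped, at 0, 2 and 2 in Control and 3, 1 and 3 in CMS. Its mean was 1.33 in Control and 2.33 in CMS. Summed neuronal, oligodendrocyte, blood, choroid plexus with epithelium, and muscle with vessel wall markers overlapped between the groups, but each sum is dominated by its most abundant members. Of all 25 markers, 4 were higher in CMS without overlap, namely miR-21-5p, miR-145-5p of the vessel wall (326 to 473 in Control, 514 to 935 in CMS) and the epithelial miR-200b-3p (2 to 8 and 11 to 27) and miR-200c-3p (1 to 2 and 3 to 5). The 1 that was lower without overlap was miR-449a-5p of ciliated cells (18 to 20 and 3 to 16). Over all miRNAs tested, 19.6% were higher and 6.24% lower in CMS without overlap, so nothing is read from these marker counts. Neuronal miR-128-3p overlapped and varied widely, at 18158, 54214 and 54272 in Control and 28999, 16153 and 19969 in CMS. CMS 1 was the highest library in the muscle and vessel wall sum (16670 against 9933 to 12496) and the oligodendrocyte sum (2595 against 1488 to 1810). It was also highest in the blood sum (438 against 171 to 340) and the glial and immune sum (3664 against 2187 to 3642). In the choroid plexus with epithelium sum it was the lowest, at 400 against 489 to 724. The muscle and vessel wall sum is mostly miR-143-3p, at 15683 in CMS 1, and the blood sum mostly miR-451-5p, at 303. The muscle miRNAs miR-1-3p, miR-133a-3p and miR-206-3p, and miR-144-3p and miR-486 of the blood list, were not highest in CMS 1. The part of these cell type markers in the miR-30 values was not tested. In bulk tissue, fewer cells of a type and less RNA per cell cannot be told apart.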

How the data were processed

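Total RNA from mPFC of 3 Control and 3 CMS rats was made into miRNA libraries for an Illumina NextSeq (labels' protocols). The aligner Novoalign 2.07.11 is listed in the submitters' processing notes. For trimming, genome build, annotation and normalization the sources used here give nothing. The deposited values are treated as a score, a normalized value rounded to whole numbers: library sums differ by 3.72%, and among miRNAs with a mean of 1 to 8 the replicate variance divided by the mean was 0.523 (Control) and 0.537 (CMS), below what raw reads give. Depth is unknown, so no counting interval or floor is given.

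Samples were grouped by title. On log2(value + 1), limma 3.58.1 (R 4.3.3) with a trend was fitted to miRNAs that reached 1 in 3 or more libraries; all 9 members passed this filter. This scale understates the changes of rare miRNAs. For arm ratios, log2(3p + 1) minus log2(5p + 1) was fitted for hairpins with both arms past the filter, with the trend on the rarer arm. Adjustment was by Benjamini-Hochberg over all features. With 3 against 3, an exact permutation test cannot go below 0.1. Members and lists were chosen with earlier results of these data known. Named are all members, the other miR-30c 3p arms, miR-384, and the 5 miRNAs most like each sum. Sequences and gene order came from RefSeq (GRCr8), with no coordinates printed because the authors' build is not given.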

Additional observations from a re-analysis of the deposited data

How the results depend on the processing

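None of the 9 miR-30 members passed in any alternative run. The count of all changed miRNAs was 27, and 11 with annotated miRNAs only. Leaving out each library gave 2 to 55 miRNAs, 0 members, 8 to 57 hairpins with a changed ratio (26 with all libraries: 57, 10 and 8 without Control 1, 2 and 3, and 13, 8 and 9 without CMS 1, 2 and 3) and 0 to 3 miR-30 hairpins. With no trend 8 hairpins passed and 0 of miR-30, and with a pseudocount of 10 there were 32 hairpins, 2 of them of miR-30 (a and e). The labels number replicates 1 to 3 in both groups and do not say whether the numbers mark pairs. Deviations of same-numbered libraries correlated at -0.14, -0.06 and -0.0005, which cannot settle this. With the replicate block 1 miRNA and 41 hairpins passed, 3 of them of miR-30.

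The log2 difference of the 3p sum moved from 0.44 to 0.32 with trimmed-mean rescaling, and that of the 5p sum from -0.17 to -0.29. The 5p sum ran from -0.24 to -0.05, the 3p sum from 0.38 to 0.50 and their ratio from 0.43 to 0.74 over the libraries left out. Signs turned for miR-30d-5p (-0.024 with quantile normalization, -0.12 with rescaling, -0.0088 to 0.011 over libraries left out), miR-30a-5p (-0.32 to 0.11), miR-30d-3p (-0.22 to 0.018) and the miR-30d ratio (-0.21 to 0.0093). Rounding limits the rare 3p arms. The causes were not tested.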
